A study of Mus musculus with 15 samples.

Results

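The Qa class I genes H2-Q7 and H2-Q8 and the interferon-inducible genes Ifi202b and Trim34a were followed in mammary glands of BALB-neuT mice at 4 ages. The members were the probes whose RefSeq accession belongs to one of these 4 genes, and each gene had 1 probe, which gave 4 of the 33012 gene probes on the array and 4 of the 306 genes that could be named. The accession on the array was NM_010394.1 for H2-Q7, NM_023124.2 for H2-Q8, NM_008327.1 for Ifi202b and NM_030684.1 for Trim34a. All 4 probes passed the filter on dim probes.

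Total RNA of gland whole mounts was hybridised to Applied Biosystems AB1700 arrays, from 5 animals of week 10, 2 of week 15, 4 of week 19 and 4 of week 22, with 1 array per animal. BALB-neuT mice are BALB/c mice with a transgene for the mutated, active form of rat HER-2/neu, an oncogene, under the mouse mammary tumour virus promoter, and carcinomas develop in their glands with age. Every group had this genotype, none was treated, and no gland without the transgene was included, so ageing of the gland and tumour development cannot be told apart. A whole mount contains epithelium, fat, vessels and any lymphoid tissue left in it. In such bulk RNA, more cells of a type and more RNA per cell cannot be told apart.

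Class I molecules carry peptides to the cell surface. The Qa genes are non-classical members of this family in the mouse, and H2-Q6, H2-Q7, H2-Q8 and H2-Q9 are close copies whose products make up the Qa-2 antigen, a lipid-anchored class I molecule of lymphocytes and other cells. Interferons raise class I transcription and switch on genes through the interferon-stimulated response element, the site that IRF and STAT factors bind. Ifi202b encodes a HIN domain protein of the mouse that binds cytosolic DNA and dampens the Aim2 inflammasome, and its level is known to vary between inbred strains. Trim34a belongs to the tripartite motif family of RING ubiquitin ligases. Its human counterpart TRIM34 is interferon-inducible and acts on retroviral capsids.

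The probes cannot be taken to read 1 copy each. In the RefSeq gene table of assembly GRCm38.p6, H2-Q7 and H2-Q8 lie on chromosome 17, H2-Q7 next to H2-Q6 and H2-Q8 next to H2-Q9, and both H2-Q7 and H2-Q8 carry Qa-2 as a synonym. Ifi202b lies on chromosome 1 beside Ifi203 and Ifi205 and now includes the former Ifi202a. Trim34a lies on chromosome 7 beside Trim5, Trim6 and Trim12a, and the same chromosome holds its close copy Trim34b. Signal from such copies may be shared, and the probe sequences were not used here.

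Promoter sequences are shown for the members matched in the RefSeq promoter table, H2-Q7, Ifi202b and Trim34a, because they differ in which of the strings defined below they hold. Each runs 5′ to 3′ on the gene's strand from 250 bases before the annotated start to 50 bases after it, in the C57BL/6J reference, so BALB/c alleles may differ. Capitals mark matches, on either strand, to 3 motifs chosen with the sequences in view: GAAA repeated after any 2 bases (the core of the interferon-stimulated response element), GAANNGAAA (a closer pair of IRF half-sites) and TTCNNNGAA (the gamma-activated site bound by STAT factors).
H2-Q7, chr17:35438905-35439204, + strand: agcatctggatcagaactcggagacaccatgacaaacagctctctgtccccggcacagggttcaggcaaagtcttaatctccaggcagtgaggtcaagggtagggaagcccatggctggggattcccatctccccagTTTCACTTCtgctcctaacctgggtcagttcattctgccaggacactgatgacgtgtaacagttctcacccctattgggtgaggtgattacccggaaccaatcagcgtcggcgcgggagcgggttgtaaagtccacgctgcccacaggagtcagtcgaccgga
Ifi202b, chr1:173982795-173983094, - strand: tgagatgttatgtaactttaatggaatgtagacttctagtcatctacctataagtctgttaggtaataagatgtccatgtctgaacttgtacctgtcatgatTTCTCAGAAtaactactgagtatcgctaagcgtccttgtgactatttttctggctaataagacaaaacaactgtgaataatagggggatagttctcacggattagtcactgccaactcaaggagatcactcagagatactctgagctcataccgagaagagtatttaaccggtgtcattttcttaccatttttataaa
Trim34a, chr7:104244207-104244506, + strand: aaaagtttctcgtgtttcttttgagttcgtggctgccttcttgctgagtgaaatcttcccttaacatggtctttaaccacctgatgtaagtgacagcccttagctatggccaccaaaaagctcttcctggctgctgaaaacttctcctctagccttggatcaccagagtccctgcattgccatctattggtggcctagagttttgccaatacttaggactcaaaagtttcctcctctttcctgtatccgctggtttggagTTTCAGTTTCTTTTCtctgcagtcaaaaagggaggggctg

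The H2-Q7 window held an IRF pair, GAAGTGAAA on the opposite strand, from position -113 to -105, counted with 0 at the annotated first base of the transcript. The Trim34a window held the response element core, GAAACTGAAA on the opposite strand, from 10 to 19 and an overlapping IRF pair, GAAAAGAAA, from 16 to 24. In the Ifi202b window only TTCTCAGAA, a gamma-activated site match, was found, from -148 to -140. Among all 32851 promoter windows of that table, 3.44% held the response element core, 7.52% the IRF pair and 8.3% the gamma-activated site. A match is a string of letters and not a measured binding site, and the absence of a match concerns this window and the exact string only. A window without the core string may thus still hold a response element that departs from it.

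The 4 probes differed widely in how well they were measured. H2-Q7 was among the brightest probes, ranking between 80 and 360 from the top on the 15 arrays, with a signal-to-noise ratio of 56.4 to 90.2. Ifi202b had a ratio of 54.7 to 100.7 and H2-Q8 one of 9.72 to 58.8, and these 3 genes were above background (signal-to-noise of at least 3) on all 15 arrays. Trim34a was dim, with a ratio of 1.25 to 17.2, and was above background on 13 of 15 arrays, the exceptions being week 10 replicate 2 (2.94) and week 22 replicate 1 (1.25). The scanner's own SD was at most 1.77% of the H2-Q7 signal but reached 80.2% of the Trim34a signal on week 22 replicate 1. One H2-Q7 spot, that of week 19 replicate 3 with the highest H2-Q7 signal of 1470610, carried flag code 4, and no source used here says what the code stands for. On that array no spot below a signal of 1083730 carried this code.

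Across arrays 46.1% to 53.9% of the probes were above background, the fewest on week 15 replicate 1, which also had the lowest median signal (650.2). Levels below are log2 signals after quantile normalization between arrays, changes are log2 differences ± SE from limma, and a probe was called at a Benjamini-Hochberg adjusted p below 0.05 over the 20867 probes kept. The number of arrays limits the precision, most of all at week 15. Of the 7 arrays scanned on day 1, 4 were of week 10, while the 8 of day 2 included 1 of week 10. Week 10 replicates 1, 2 and 4 stood apart through hair keratins, with a mean level of Krt25 and Krt27 between 15.37 and 18.81, against 7.28 to 10.16 on the other 12 arrays. The week 19 and week 22 changes from week 10 are therefore also given without these 3.

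H2-Q8 was higher at week 19 than at week 10, and of the 4 genes it had the greatest change. Its week 10 levels were 12.48, 12.32, 12.53, 12.60 and 12.20, and its week 19 levels were 14.34, 13.63, 14.42 and 13.11. Every week 19 value lay above every week 10 value, and the lowest week 19 value was 0.51 above the highest at week 10. The mean went from 12.43 ± 0.16 (SD, n = 5) to 13.88 ± 0.62 (SD, n = 4), a 2.74-fold rise (95% confidence interval 1.66 to 4.52). The log2 change was 1.45 ± 0.34 with a limma adjusted p of 0.0137, and 4.92% of the kept probes had a higher change. Of the kept probes 7.28% were called higher in this comparison, and 9.37% had every week 19 value above every week 10 value.

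The rise of H2-Q8 kept its call with a block for scan day (1.47, limma adjusted p = 0.0385) or for array series, the runs of serial numbers in the labels (1.41, limma adjusted p = 0.0247). H2-Q8 changed by 1.86 on day 1 alone, 1.52 on day 2 alone, 0.97 in series 3 and 1.98 in series 4, and none of these smaller fits passed. Day 1 and series 4 each held 1 array of week 19, and day 2 held 1 array of week 10. The series 4 value rests on week 19 replicate 3. Without week 19 replicate 3, its highest array, the change was 1.27 and the call was lost (limma adjusted p = 0.0539), and the other 8 single omissions kept it. Without the 3 week 10 arrays with hair keratins it was 1.51 (limma adjusted p = 0.0695).

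At week 22 H2-Q8 stood between its week 10 and week 19 levels, at 13.61, 13.07, 13.45 and 13.20. These values also lay above all week 10 values, by at least 0.47, and 3 of the 4 lay within the span of week 19. Of the kept probes 10% had every week 22 value above every week 10 value. The difference from week 10 was 0.91 ± 0.34, or 1.88-fold (95% confidence interval 1.14 to 3.10), and did not pass (limma adjusted p = 0.0955). After centring each array on its own median, which moved the median change of all kept probes from -0.01 to 0.14, it was 1.12 and passed (limma adjusted p = 0.0407). The fit with only the 2 ages compared also passed (0.91, limma adjusted p = 0.016). The change did not pass with a block for scan day (0.92, limma adjusted p = 0.162) or for array series (0.99, limma adjusted p = 0.0772), or without the 3 arrays with hair keratins (0.97, limma adjusted p = 0.236). In this comparison 7.78% of the kept probes were called higher.

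The 2 week 15 arrays disagreed on H2-Q8. Replicate 2 was at 12.56, within the week 10 values, and replicate 1 was at 10.78, the lowest of all 15 arrays. The mean difference from week 10 was -0.75 ± 0.42 (limma adjusted p = 0.483), where 0.0335% of the kept probes were called in either direction. With replicate 1 alone it was -1.64 (limma adjusted p = 0.0436) and with replicate 2 alone 0.14, so its direction rests on 1 array, the one with the fewest probes above background. In each case the lone array was assumed to vary like the other ages. From highest to lowest, the H2-Q8 means ran week 19, week 22 and week 10, and week 15 could not be placed against week 10. The neighbours week 19 and week 22 differed by -0.54 ± 0.35 with overlapping values.

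**Figure D1:**
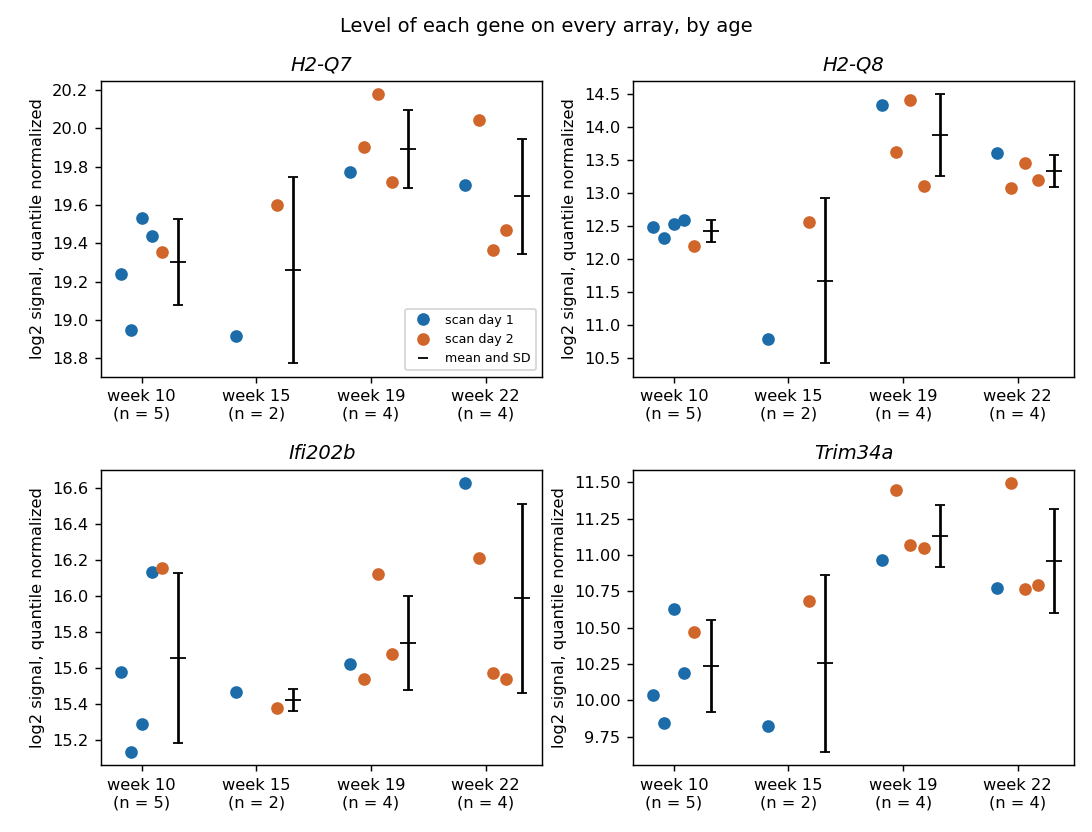
Log2 signal after quantile normalization (vertical axis) of H2-Q7, H2-Q8, Ifi202b and Trim34a on each of the 15 arrays, by age, with points coloured by scan day and the mean and SD of each age beside them. H2-Q8 separated week 19 and week 22 from week 10, Trim34a did so with a narrower gap, and Ifi202b overlapped between all ages with more than 2 arrays. All values lay above all week 10 values for 9.37% of the kept probes at week 19 and for 10% at week 22.

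Trim34a was also higher at week 19 than at week 10. It was at 10.04, 9.85, 10.63, 10.19 and 10.47 at week 10 and at 10.97, 11.45, 11.07 and 11.05 at week 19, so the groups did not overlap and were 0.34 apart. Such a separation, with every week 19 value above every week 10 value, was found for 9.37% of the kept probes. In this comparison 7.28% of the kept probes were called higher. The Trim34a mean went from 10.23 ± 0.32 (SD, n = 5) to 11.13 ± 0.21 (SD, n = 4), a 1.87-fold rise (95% confidence interval 1.31 to 2.65). The log2 change of Trim34a was 0.90 ± 0.23 with a limma adjusted p of 0.0243. 

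This call was lost when arrays were blocked or left out in several ways. With scan day as a block the change was 0.70 and did not pass (limma adjusted p = 0.0906), and on days 1 and 2 alone it was 0.79 and 0.72. The week 10 arrays of scan day 1 spanned 9.85 to 10.63 and the single week 10 array of scan day 2 was at 10.47. A block for array series left the change at 0.88 (limma adjusted p = 0.0347), and series 3 and 4 alone gave 0.92 and 0.90. Day 1 and series 4 each held 1 array of week 19. The call was lost without week 10 replicate 2 (0.80, limma adjusted p = 0.0502), week 19 replicate 2 (0.79, limma adjusted p = 0.0798) or week 19 replicate 3 (0.92, limma adjusted p = 0.0584). Without the 3 week 10 arrays with hair keratins the change was 0.59 (limma adjusted p = 0.228).

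At week 22 Trim34a was at 10.78, 11.49, 10.76 and 10.79. Replicate 2 was high and the other 3 lay close together, and all 4 were above the week 10 values, by at least 0.14. Among the kept probes 10% had every week 22 value above every week 10 value. The first of the 4 Trim34a values came from the array on which the probe was not above background. The difference from week 10 was 0.72 ± 0.23, or 1.65-fold (95% confidence interval 1.16 to 2.34), and just missed the threshold (limma adjusted p = 0.0618). It passed with each array centred on its median (0.78, limma adjusted p = 0.0433) and with a block for array series (0.87, limma adjusted p = 0.0316). It was lower and did not pass with a block for scan day (0.52, limma adjusted p = 0.190) and without the 3 arrays with hair keratins (0.41, limma adjusted p = 0.418). Week 15 was at 9.82 and 10.68, and differed from week 10 by 0.02 ± 0.29. In order, week 19 and week 22 differed by -0.18 ± 0.25, and week 15 and week 10 could not be ordered.

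H2-Q7, the bright Qa gene, had smaller differences. It was at 19.24, 18.95, 19.53, 19.44 and 19.35 at week 10 and at 19.77, 19.90, 20.18 and 19.72 at week 19. These values did not overlap and were 0.19 apart. Among the kept probes 9.37% had every week 19 value above every week 10 value, and 16.2% had a higher change than H2-Q7. The H2-Q7 difference was 0.59 ± 0.20, or 1.51-fold (95% confidence interval 1.12 to 2.03), and did not pass (limma adjusted p = 0.0682). It passed only when limma's variances were fitted with an intensity trend and robustly (limma adjusted p = 0.031), among the settings tried, and was 0.45 without the 3 arrays with hair keratins (limma adjusted p = 0.301). At week 22 the levels were 19.71, 20.04, 19.37 and 19.47, of which replicates 3 and 4 fell within the week 10 values. The difference from week 10 was 0.34 ± 0.20 (limma adjusted p = 0.281), and 0.20 without those arrays (limma adjusted p = 0.677). The week 15 arrays were at 18.92 and 19.60 (difference -0.04 ± 0.25), and replicate 1, as for H2-Q8 and Trim34a, was the lowest of all arrays. With each array centred on its median, week 10 replicate 2 was lower than that array for H2-Q7 (18.64 against 19.15) and slightly so for Trim34a (9.853 against 9.859).

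Because the Qa copies may share signal, the difference between the H2-Q7 and H2-Q8 probes was taken within each array, and only its change with age was read. The log2 difference was 6.88 ± 0.21 (SD, n = 5) at week 10 and 6.02 ± 0.53 (SD, n = 4) at week 19, a change of -0.86 (exact permutation test, two-sided, p = 0.00794, which is the lowest value possible with 126 splits, and adjusted p = 0.0159 over 2 tests). Every week 19 value, from 5.43 to 6.61, lay below every week 10 value, from 6.63 to 7.16. The measured log2 signal of H2-Q8 thus changed more than that of H2-Q7. H2-Q7 is among the brightest probes and 1 of its week 19 spots carried flag code 4, and whether bright signals are compressed on these arrays was not tested. At week 22 the change was -0.56 (exact permutation p = 0.0556, adjusted p = 0.0556). After median centring of the arrays the changes were -0.77 (exact permutation adjusted p = 0.0476) and -0.51 (exact permutation adjusted p = 0.0714). With single arrays left out the week 19 change lay between -1.06 and -0.67. Its exact permutation adjusted p then lay between 0.0357 and 0.0571 and was below 0.05 in 4 of 9 omissions. Without the 3 arrays with hair keratins the changes were -1.06 and -0.77 at week 19 and week 22, where the 15 splits allow no p below 0.0667.

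Ifi202b did not separate the ages. The week 10 arrays were at 15.57, 15.13, 15.29, 16.13 and 16.15 and the week 15 arrays at 15.47 and 15.38. The week 19 arrays were at 15.62, 15.54, 16.12 and 15.68, and the week 22 arrays at 16.63, 16.21, 15.57 and 15.54. The week 19 and week 22 values overlapped those of week 10, and the spread within an age was widest at week 22 (SD 0.53, n = 4). Its difference from week 10 was 0.08 ± 0.28 at week 19 (95% confidence interval -0.51 to 0.68, limma adjusted p = 0.886) and 0.33 ± 0.28 at week 22 (-0.26 to 0.93, limma adjusted p = 0.468). Without the 3 arrays with hair keratins these differences were 0.019 and 0.27 (limma adjusted p = 0.982 and 0.685). On the fold scale the intervals over all arrays reach up to 1.60-fold at week 19 and 1.90-fold at week 22.

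The order of array series 3 and 4 in Ifi202b turned with age. Series 3 was higher at week 10 (16.13 and 16.15 against 15.57, 15.13 and 15.29) and at week 22 (16.21 against 15.57 and 15.54), and lower at week 19 (15.54 and 15.68 against 16.12). At week 19 against week 10 the difference was -0.54 within series 3 and 0.79 within series 4, and -0.38 within scan day 2. At week 22 against week 10 it was 0.07 and 0.22 within series 3 and 4, 1.10 within scan day 1 and -0.38 within scan day 2. Scan day 1 held 1 array of week 22, and scan day 2 held 1 array of week 10. The part that the array series had in these values was not tested further.

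**Figure D2:**
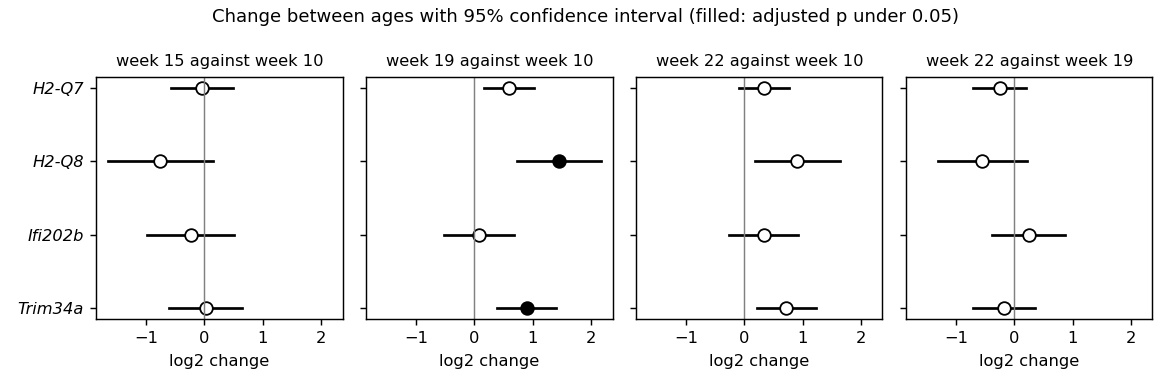
Log2 change (horizontal axis, point) with its 95% confidence interval (line) for each gene in 4 comparisons of ages, from 1 limma fit over all 15 arrays, with filled points for an adjusted p below 0.05. Only H2-Q8 (1.45) and Trim34a (0.90) at week 19 against week 10 are filled, and the Ifi202b intervals all contain 0.

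Of the 4 genes, 2 were called higher at week 19 against week 10 and none lower, with a median change of 0.75 against -0.02 for all kept probes, of which 12.5% were called and 5.24% were called lower. At week 22 against week 10 none was called, with a median change of 0.53 against -0.01 for all kept probes, of which 12% were called and 4.18% were called lower. Both comparisons use the same week 10 arrays. Between week 22 and week 19 no member was called, and neither was any of the 20867 kept probes (limma), of which 1527 had an unadjusted p below 0.05. The median change of the members was -0.21, and their differences ranged from -0.54 for H2-Q8 to 0.25 for Ifi202b. Since the members were picked with results of these arrays known, these counts describe them and are no test of the group.

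Over the 15 arrays H2-Q7 and Trim34a varied together (Pearson r = 0.906, permutation p = 1e-05, the smallest the resamples can give, and Spearman rho = 0.929, permutation p = 1e-05, both adjusted p = 6e-05 over the 6 pairs of members). The relation held without the 2 arrays farthest from the H2-Q7 median (r = 0.924), within scan day 1 (r = 0.960, 7 arrays) and within scan day 2 (r = 0.802, 8 arrays). It also held for deviations from the age means (r = 0.814), and after median centring r was 0.844. Low arrays of both genes were week 15 replicate 1 and week 10 replicate 2, and high ones were week 22 replicate 2 and week 19 replicates 2 and 3.

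H2-Q8 followed H2-Q7 (r = 0.786, permutation adjusted p = 0.00177, rho = 0.789, permutation adjusted p = 0.0016) and Trim34a (r = 0.726, permutation adjusted p = 0.00364, rho = 0.800, permutation adjusted p = 0.0016) over all arrays. Without the 2 arrays farthest from the median of the first gene, r was 0.601 and 0.639. For deviations from the age means r fell to 0.510 for H2-Q7 and to 0.232 for Trim34a. Within scan days 1 and 2 it was 0.868 and 0.646 for H2-Q7, and 0.851 and 0.518 for Trim34a. No relation of Ifi202b to them passed, with r of 0.480 to H2-Q7 (permutation adjusted p = 0.106), 0.320 to H2-Q8 (permutation adjusted p = 0.249) and 0.316 to Trim34a (permutation adjusted p = 0.249). The r of Ifi202b with these 3 was 0.568, 0.415 and 0.424 within scan day 1, and 0.406, 0.062 and 0.174 within scan day 2. It was 0.490, 0.119 and 0.142 for deviations from the age means. After median centring it was 0.635, 0.294 and 0.378, so the value for H2-Q7 depends on the scaling.

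**Figure D3:**
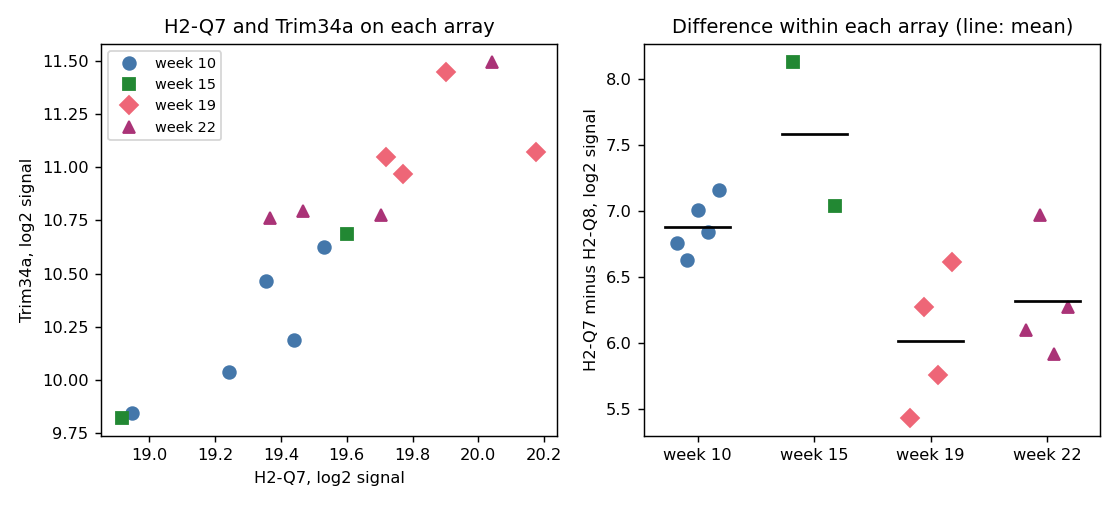
Left, log2 signal of H2-Q7 (horizontal axis) and Trim34a (vertical axis) on each of the 15 arrays, with symbols for age. Right, H2-Q7 minus H2-Q8 log2 signal within each array by age, with a line at the mean. The left points follow a rising band (r = 0.906), and the right points of week 19 all lie below those of week 10.

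Among 201 other named genes, those with the pattern most like a member's over the 15 arrays were found by Pearson r, given here as a description since they were picked as the highest. For H2-Q7 they were Trim34a (0.906), B9d1 (0.864), which encodes a protein of the ciliary transition zone, and H2-Q8 (0.786). For Trim34a they were H2-Q7, B9d1 (0.843) and Sf3b5 (0.812), a subunit of the splicing machinery. For H2-Q8 they were B9d1 (0.822), Rnaset2b (0.820), a ribonuclease gene, and Tceal9 (0.787). For Ifi202b no gene exceeded 0.693, the value of Spin4, and Jun (0.692), an immediate early transcription factor, and Csn1s2b (0.601), a casein, came next.

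Little of the wider pathway could be named on this array. Of 110 other interferon-inducible genes, 48 other class I genes and 12 class II genes listed, none could be matched to a probe. Of 65 other tripartite motif genes, Trim59 differed by 1.42 ± 0.46 (limma adjusted p = 0.0606) and Trim41 by 0.09 ± 0.16 (limma adjusted p = 0.783) at week 19 against week 10, and neither passed. Of 15 class I loading and proteasome genes only Psme3, a proteasome activator subunit, was matched, with a difference of 0.29 ± 0.18 (limma adjusted p = 0.304). Of 28 interferon and interferon receptor genes only Ifne, an interferon of epithelia, was matched, and it did not pass the filter on dim probes.

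Genes of leukocytes and lymphoid stroma moved in the same comparison. Of 20 leukocyte genes 3 were matched, and all 3 were called higher at week 19 against week 10: Bcl2a1b (1.99 ± 0.24, limma adjusted p = 0.000206), Tnfsf13 (1.30 ± 0.18, limma adjusted p = 0.000513) and Lst1 (1.12 ± 0.20, limma adjusted p = 0.0039). Over all kept probes 7.28% were called higher in this comparison, as were 17 of the 202 named genes. The comparison and the list were chosen with earlier results of these data known, so these calls are a description and no test. The mean level of the 3 leukocyte genes at week 10 was 13.29 to 13.90 and at week 15 it was 13.49 to 14.09. Both later ages were above these, with 14.88 to 15.31 at week 19 and 14.88 to 15.06 at week 22. Lists of T cells, B cells, natural killer cells, macrophages, dendritic cells and neutrophils had no matched gene. The part of cell number in the members' changes was not tested.

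Of 9 lymphoid stroma genes the chemokines Ccl19, Ccl21a and Ccl21b were matched. All 3 were called higher at week 19 against week 10 (median change 4.83), and only Ccl21a at week 22 against week 10 (2.33 ± 0.69, limma adjusted p = 0.0445). Over all kept probes the shares called higher were 7.28% and 7.78%. Week 19 was compared because lymphoid genes were highest then in earlier results of these data, so the week 19 calls are a description and no test. The mean level of the 3 chemokines was 11.95 to 13.54 at week 10 and 17.03 to 17.94 at week 19. It was 13.69 to 16.46 at week 22 and 13.46 and 16.52 at week 15. Both H2-Q8 and these chemokines were low on all week 10 arrays and high on all week 19 arrays. Week 15 replicate 1, with the chemokines at 16.52, had the lowest H2-Q8 level of all arrays. At week 22 replicates 1 and 2, with the chemokines at 13.89 and 13.69, had H2-Q8 at 13.61 and 13.07, and replicates 3 and 4, with the chemokines at 16.18 and 16.46, had it at 13.45 and 13.20. The part of lymphoid stroma in the H2-Q8 change was not tested.

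Markers of the labelled tissue were few. Of 18 luminal genes only 4 milk protein genes (Csn1s2a, Csn1s2b, Csn2 and Wap) were matched, with a mean level of 9.28 to 10.39 at week 10, 11.22 to 14.61 at week 19 and 13.12 to 15.39 at week 22. Csn1s2a (4.25 ± 0.92, limma adjusted p = 0.0098) and Csn2 (4.11 ± 0.84, limma adjusted p = 0.0074) were called higher at week 19 against week 10. Csn1s2b (1.39 ± 0.86, limma adjusted p = 0.322) and Wap (0.77 ± 0.43, limma adjusted p = 0.261) did not pass there. All 4 were called higher at week 22 against week 10. Over all kept probes the shares called higher were 7.28% at week 19 and 7.78% at week 22. Of 12 adipocyte genes only Aoc3 was matched, with a level of 19.30 to 20.45 at week 10, 17.12 to 18.94 at week 19 and 17.43 to 19.14 at week 22. Aoc3 was called lower than at week 10 at week 19 (-1.54 ± 0.42, limma adjusted p = 0.0288) and at week 22 (-1.46 ± 0.42, limma adjusted p = 0.0377). Over all kept probes the shares called lower were 5.24% and 4.18%. Whether the levels of these marker genes reflect tissue make-up or RNA per cell, and what part either had in the members' changes, was not tested.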

How the data were processed

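The authors deposited, per the file headers, a linear intensity for each probe, the SD of that intensity, a score of signal over noise and a flag code. Per the labels' protocols the manufacturer's procedure was used to read the images. No source used here states how background was treated. The authors' deposited table of log2 values, which ranks probes as the scanner signals do (Spearman 1 on all 15 arrays), was an alternative, and its normalization is not stated.

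Signals of 33012 probes (303 control spots left out) were taken to log2 and quantile normalized with limma 3.58.1 in R 4.3.3. Probes whose signal was 3 or more times the noise, with a flag under 5000, on at least 50% of the arrays of 1 age were kept (20867). One limma fit (lmFit, eBayes, two-sided) used age as 4 levels, tested on simulated data. Names came from unversioned RefSeq accessions matched to the GRCm38.p6 gene table (312 probes, 306 genes, 202 genes kept, the brightest probe per gene). Ages came from the labels, array series from serial numbers in the titles and scan days from the file headers. Replicate numbers follow the order of deposit. Permutation tests were exact, or used 100000 resamples for correlations. Named genes were the members, the 3 genes most like each by Pearson r and the matched genes of 21 lists. The members and lists were chosen with earlier results of these data known. Basal epithelium had only Lgals7 (level 13.58 to 14.46), and endothelium, fibroblast and proliferation lists had no matched gene. Alternatives were other scalings, the authors' table, no filter, blocks, single batches, other variance settings and left-out arrays.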

Additional observations from a re-analysis of the deposited data

Results flagged for a closer look

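Trim34a at week 22 replicate 2 stood at 11.49, far above the nearest of the other 3 week 22 arrays at 10.79. The gap was 0.959 of the group's whole range, past Dixon's critical value of 0.829 for 4 samples. Of 15 groups looked at in this way, 12 of a gene at an age and 3 of the H2-Q7 minus H2-Q8 difference, 1 was singled out, and chance alone singles out about 1 in 20. The signal-to-noise ratio of that spot was 17.2, the highest of Trim34a on any array, and H2-Q7 was also highest of its age on that array (20.04).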

How the results depend on the processing

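Each array came from a different animal, so arrays of different ages could not be paired and no replicate block was fitted. The number of arrays, 2 at week 15, limits every comparison, and Trim34a was near background. Of 316 recomputed changes of the members, 268 kept their direction and side of the threshold, 26 reversed, 15 lost a call and 7 gained one. The cause of the changes that follow was not tested, but single batches hold fewer arrays, and several hold only 1 array of an age.

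At week 19 against week 10 the probes called numbered 1683 with scan day as a block, 51 within day 1, 566 within day 2, 196 within series 3 and 103 within series 4. H2-Q8 lost its call within day 1 (1.86), day 2 (1.52), series 3 (0.97) and series 4 (1.98), and without the 3 week 10 arrays with hair keratins (1.51), an alternative chosen after seeing the data. Trim34a lost its call with the scan day block (0.70), within day 1 (0.79), day 2 (0.72), series 3 (0.92) and series 4 (0.90), and without those arrays (0.59). H2-Q7 was called with trended, robust variances (0.59). Ifi202b turned to -0.38 within day 2 and -0.54 within series 3.

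At week 22 against week 10 the probes called numbered 4 within day 1, 682 within day 2, 0 within series 3 and 450 within series 4. H2-Q8 was called with median centring (1.12) and with only the 2 ages compared (0.91), and Trim34a with median centring (0.78) and the series block (0.87). Ifi202b turned to -0.38 within day 2. Median centring changed the split of called probes from 1623 higher and 872 lower to 2674 and 500.

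At week 22 against week 19 the probes called numbered 3 with median centring, 8 within day 1, and 1 each with the scan day block, with trended variances and with only the 2 ages. Ifi202b turned to -0.0050 within day 2 and -0.57 within series 4, and H2-Q7 and Trim34a turned to 0.23 and 0.25 within series 3. At week 15 against week 10 the probes called numbered 1 with the series block, 327 within day 1, and 0 within day 2, within series 4, with trended variances, with only the 2 ages and without the arrays with hair keratins. There H2-Q7 turned to 0.22 with median centring, 0.10 with the series block, 0.25 within day 2 and 0.36 within series 4. Trim34a turned to -0.088 with the scan day block, -0.35 within day 1 and -0.29 without the arrays with hair keratins. H2-Q8 turned to 0.36 within day 2 and 0.12 within series 4, and Ifi202b to 0.05 within series 4. The median-centred week 15 level of Ifi202b was 15.50.

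With single arrays left out, the probes called ranged from 1415 to 2752 (week 19 against week 10), 1211 to 2475 (week 22 against week 10), 0 to 13 (week 22 against week 19) and 3 to 943 (week 15 against week 10). The first fell to 1652 and 1415 without week 19 replicates 2 and 3, the second to 1519 and 1211 without week 22 replicates 3 and 4, the third reached 13 without week 19 replicate 3, and the last reached 47 without week 10 replicate 3 and 943 without week 15 replicate 2. At week 19 against week 10 the changes ranged from 0.50 to 0.65 for H2-Q7, 1.27 to 1.71 for H2-Q8, -0.048 to 0.21 for Ifi202b and 0.79 to 0.998 for Trim34a. At week 22 against week 10 they ranged from 0.21 to 0.44, 0.82 to 0.99, 0.12 to 0.48 and 0.54 to 0.82 in the same order, and Trim34a passed without week 10 replicate 3 (limma adjusted p = 0.0471). At week 22 against week 19 they ranged from -0.38 to -0.15, -0.80 to -0.36, 0.03 to 0.40 and -0.36 to -0.07. At week 15 against week 10 they ranged from -0.39 to 0.30, -1.64 to 0.14, -0.37 to -0.11 and -0.41 to 0.45. The change of H2-Q7 minus H2-Q8 ranged from -1.06 to -0.67 at week 19 and from -0.78 to -0.43 at week 22. The exact permutation adjusted p was below 0.05 in 4 of 9 omissions at week 19 and in 1 of 9 at week 22. At week 19 it was 0.0571 without any single week 10 array, where fewer splits remain. Without the arrays with hair keratins the change was -1.06 and -0.77, with too few splits for a call.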
